A study of Mus musculus with 11 samples.

Results

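The 9 genes described here encode endothelin-1 (Edn1), its receptors ETA (Ednra) and ETB (Ednrb), the muscarinic acetylcholine receptors M1, M2 and M3 (Chrm1, Chrm2, Chrm3), the β1-adrenergic receptor (Adrb1), the histamine H1 receptor (Hrh1) and the serotonin 5-HT2A receptor (Htr2a). They were taken by name as muscarinic, beta-adrenergic, histamine, endothelin and serotonin genes that bear on airway tone, and all 9 were found among the 21899 mouse genes of the expression table. RNA-seq was performed on bluntly dissected airway of wild-type male BALB/c mice, obtained at 6 to 8 weeks of age, in 11 libraries. PBS mice (3 libraries, numbered 1 to 3) were not sensitized and received PBS only. OVA/LPS/Vehicle mice (4 libraries, labelled 12, 34, 56 and 78) were sensitized with ovalbumin (OVA) and alum on days 0 and 7, challenged with intranasal OVA on days 14 to 17 and with intranasal lipopolysaccharide (LPS) on days 19 and 21, and received vehicle into the trachea on days 21, 22 and 23. OVA/LPS/GGsTop mice (4 libraries, numbered 1 to 4) received the same OVA and LPS, and GGsTop, an inhibitor of γ-glutamyl transferase, in place of vehicle. Endpoints were assessed on day 25. Whether a library is 1 mouse or a pool is not stated, and p-values therefore measure the spread between libraries, which may be technical.

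Airway smooth muscle contracts mainly through receptors coupled to Gq, which raise calcium through phospholipase C. M3, H1, 5-HT2A and the endothelin receptors belong to this class. M2 couples to Gi and counteracts cAMP, while β-adrenergic receptors couple to Gs and raise cAMP, which relaxes the muscle. Endothelin-1 is made by endothelium and epithelium and acts on ETA, mostly on muscle cells and pericytes, and on ETB, which is found on endothelium as well as on muscle and also clears the peptide.

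The levels are FPKM, fragments scaled to exon length and to the total of the library, so they can be compared between genes. The library totals implied by the table ran from 14513137 to 18632382 fragments, and the 9 genes themselves rested on between 6 and 2641 fragments per library. The libraries differed in how the level of a gene depended on its GC content. The slope was 0.53 log2 units per 10 percentage points of GC in PBS 3, between 0.05 and 0.11 in PBS 1, PBS 2 and all OVA/LPS/GGsTop libraries, and between -0.26 and -0.19 in those of OVA/LPS/Vehicle. Fold changes are therefore also given after a correction for GC content. The labels name the tissue trachea, whereas the methods describe airway without it. Airway epithelial markers summed to between 28176 and 50900 FPKM (8 genes, including Scgb1a1 and Foxj1, none at 0), and alveolar markers to between 4672 and 16374 FPKM (7 genes, including Sftpc and Ager, none at 0). Exons of Chrm1, Chrm2, Edn1 and Ednra overlap those of a gene on the opposite strand in GENCODE M21, and whether the counting used strand is not given in the sources used here. In such tissue, fewer cells of a type and less RNA per cell cannot be told apart.

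The 9 genes fell into a higher and a lower tier. Ednrb had the highest mean level in every group, with 26.5 ± 7.89 FPKM (SD, n = 3) in PBS, 33.2 ± 6.48 (SD, n = 4) in OVA/LPS/Vehicle and 29.8 ± 8.24 (SD, n = 4) in OVA/LPS/GGsTop. Edn1, Ednra, Adrb1 and, outside PBS, Chrm2 followed, and their ranges overlapped in most cases. In the OVA/LPS/Vehicle group Ednrb did not overlap with Edn1, the next gene in order. Chrm3, Htr2a, Chrm1 and Hrh1 formed the lower tier, at group means of 0.966 FPKM or less. In both OVA/LPS groups Chrm2, the lowest gene of the upper tier, and Chrm3, the highest of the lower tier, did not overlap. In PBS they did, because Chrm2 was at 1.31 FPKM in PBS 3 and Chrm3 at 1.43 FPKM in PBS 2. Within the lower tier neighbours overlapped, except Chrm1 and Hrh1 in PBS and OVA/LPS/Vehicle.

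**Figure D1:**
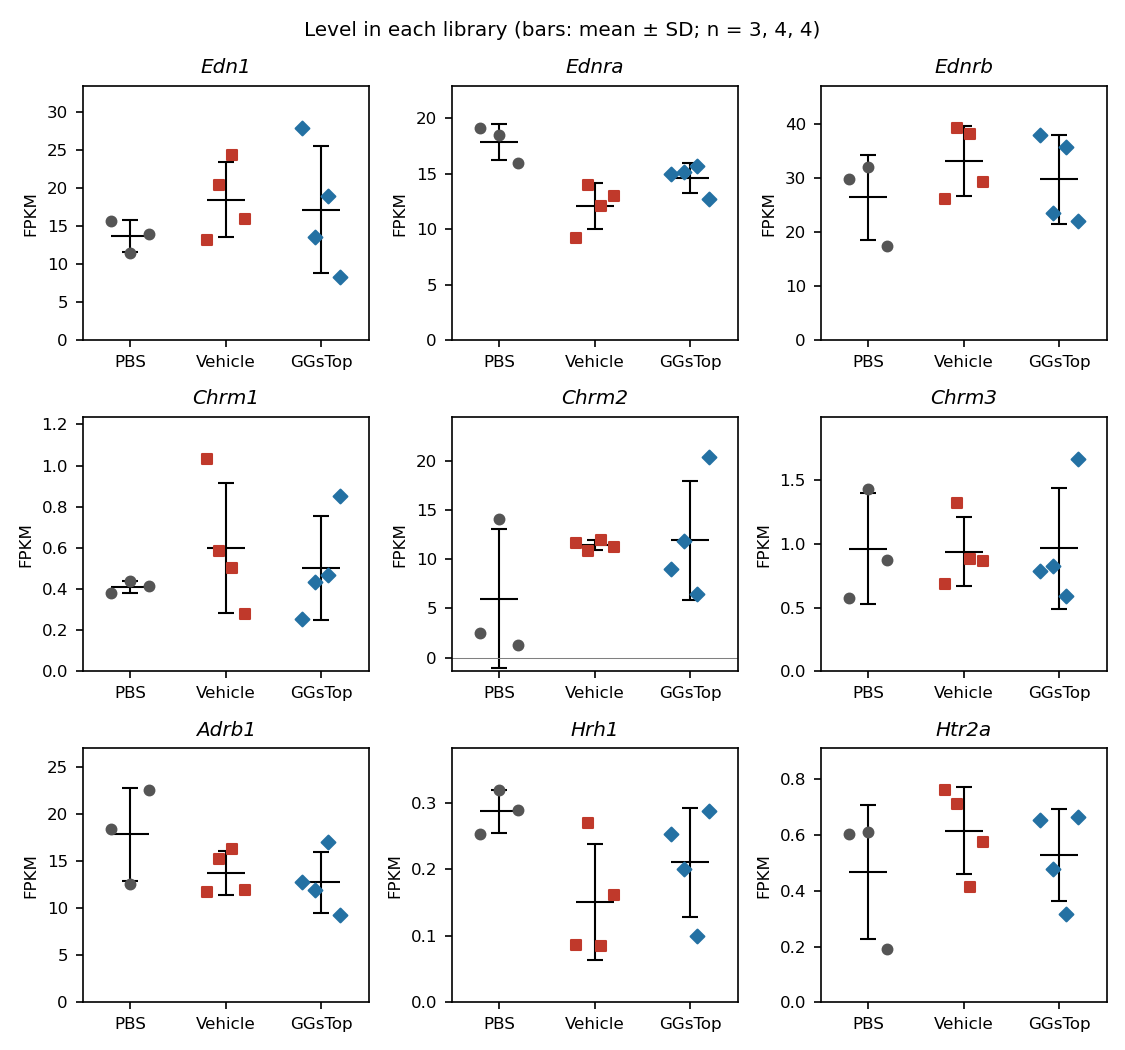
Level of each of the 9 genes in FPKM (y axes, each panel on its own scale) by group (x axis, 3 PBS, 4 OVA/LPS/Vehicle, 4 OVA/LPS/GGsTop libraries as points in label order), with the mean and SD as bars; for Chrm2 in PBS the SD reaches below 0. Ednra is the gene whose PBS points (16.0 to 19.1 FPKM) lie above all OVA/LPS/Vehicle points (9.19 to 14 FPKM), and Chrm2 is low in PBS 1 and PBS 3 but not in PBS 2.

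Of the 8 genes that entered the fit, 1 was called in OVA/LPS/Vehicle against PBS, at an adjusted p under 0.05 in limma, against 38.0% of all 14002 genes tested, of which 22.1% were called lower and 15.9% higher. The called gene was Ednra, and it was lower. The split of all calls in this comparison, 3095 lower and 2231 higher, became 4570 and 1232 when libraries were scaled to the same FPKM total, and 2513 and 2939 in limma voom on fragments with TMM scaling. In OVA/LPS/GGsTop against OVA/LPS/Vehicle, 0 of the 8 were called by limma, against 8.71% of all genes tested. By voom 0 were called, against 5.82% of all genes, and 0 had an unadjusted limma p under 0.05, against 30.8%. The first of these shares is not firm, since the 1220 genes called became between 24 and 3590 with 1 library omitted and 60 after the GC correction. OVA/LPS/GGsTop against PBS had 0 of 8 called by limma and 0 by voom, against 2.88% and 2.22% of all genes. Chrm2 alone of the 8 had an unadjusted p under 0.05 there, as did 20.5% of all genes. The groups did not overlap for 1, 0 and 1 of the 8 genes in these comparisons, Ednra in both cases, against 44.1%, 29.7% and 14.8% of all genes. The median log2 fold change of the 8 genes was 0.15, -0.08 and 0.07 in the same order, and that of all genes tested was -0.02, 0.03 and 0.01. The first and the last comparison share the PBS libraries, and the first and the second share the OVA/LPS/Vehicle libraries. Hrh1 was under the minimum mean of 0.5 FPKM and was tested alone.

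**Figure D2:**
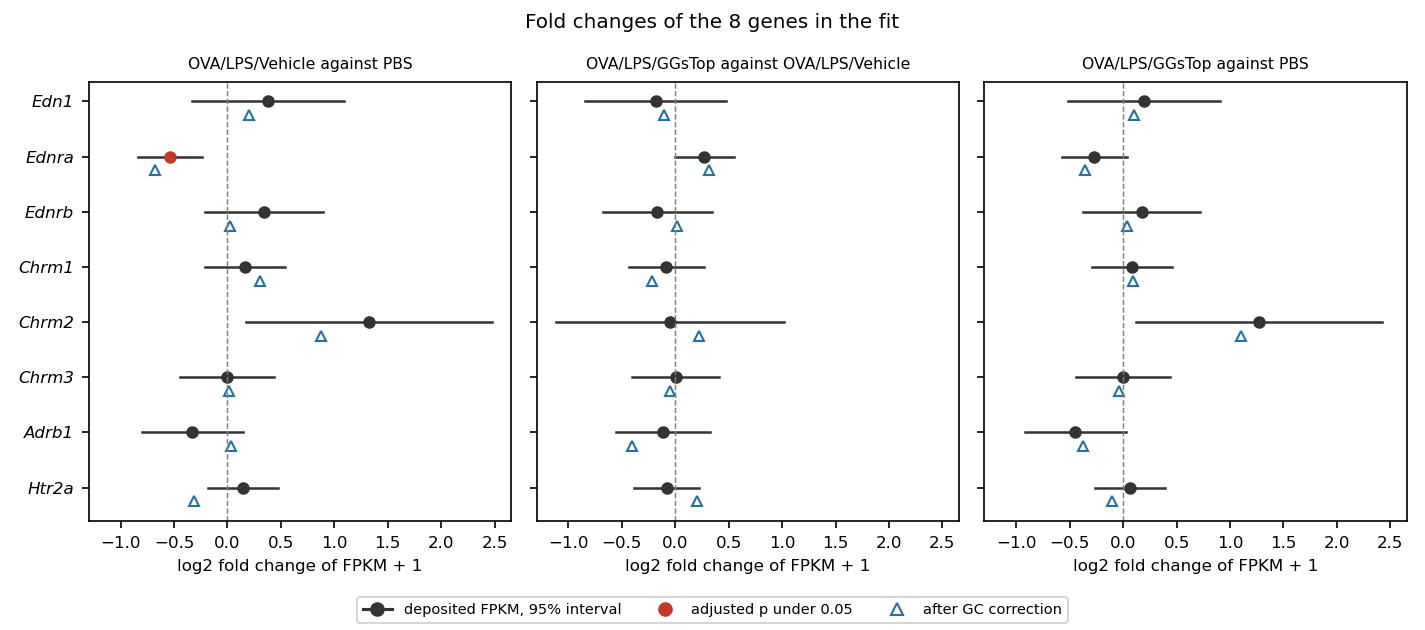
Log2 fold change of FPKM + 1 (x axis) of the 8 genes in the fit (y axis) in the 3 comparisons, with 95% intervals from limma as lines; a filled point in red has an adjusted p under 0.05, and open triangles give the value after the GC correction. Ednra in OVA/LPS/Vehicle against PBS is the one red point, and the triangles of Adrb1 and Htr2a in that comparison lie on the other side of 0 from their points. So does that of Chrm3, by little (-0.006 and 0.011).

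The 3 endothelin genes lie on different chromosomes, Edn1 at chr13:42301476-42307990 on the plus strand, Ednra at chr8:77663031-77724464 on the minus strand and Ednrb at chr14:103814625-103844402 on the minus strand (GENCODE M21, GRCm38). The promoter windows of the ligand and both receptors are shown because the receptors differed in their values, as given next. Each window holds the 250 bases before and the 50 after the RefSeq start site (GRCm38.p6), 5′ to 3′ on the strand of the gene, at chr13:42301226-42301525 for Edn1, chr8:77724403-77724702 for Ednra and chr14:103843652-103843951 for Ednrb. Capitals mark matches to 4 motifs searched on both strands: the CArG box by name, the TATA box as TATAAA, the AP-1 site as TGANTCA and the GATA site as AGATAA.
Edn1: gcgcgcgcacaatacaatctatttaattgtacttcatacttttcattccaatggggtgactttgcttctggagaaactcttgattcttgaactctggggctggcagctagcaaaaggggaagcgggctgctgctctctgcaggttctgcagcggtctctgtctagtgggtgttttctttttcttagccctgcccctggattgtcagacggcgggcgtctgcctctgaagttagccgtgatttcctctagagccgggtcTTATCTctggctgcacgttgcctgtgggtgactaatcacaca
Ednra: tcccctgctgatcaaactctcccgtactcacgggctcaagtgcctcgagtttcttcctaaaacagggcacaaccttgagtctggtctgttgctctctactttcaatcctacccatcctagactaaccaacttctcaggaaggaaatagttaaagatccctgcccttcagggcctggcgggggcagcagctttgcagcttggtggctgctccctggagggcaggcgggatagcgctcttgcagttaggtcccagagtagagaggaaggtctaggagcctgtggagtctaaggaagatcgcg
Ednrb: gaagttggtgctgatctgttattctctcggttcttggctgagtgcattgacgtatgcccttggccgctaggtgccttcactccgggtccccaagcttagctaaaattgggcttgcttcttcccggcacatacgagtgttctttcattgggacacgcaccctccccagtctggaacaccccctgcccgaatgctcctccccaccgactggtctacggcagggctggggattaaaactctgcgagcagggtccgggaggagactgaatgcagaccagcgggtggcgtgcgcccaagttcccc
The one match in the 3 windows was a GATA site on the opposite strand in Edn1, at bases 8 to 13 after the start. Such a match was found in 11.2% of all 32851 RefSeq promoters of the same length, a CArG box in 1.63%, a TATA box in 13.6% and an AP-1 site in 7.81%. The windows were 51.3% GC for Edn1, 54.7% for Ednra and 58.7% for Ednrb, against a median of 52.7% over all promoters. The motifs were chosen after the expression values had been seen, and 8 of the 9 genes have a window in the table.

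Edn1, the ligand, was at 15.6, 11.5 and 13.9 FPKM in PBS 1 to 3. It was at 13.2, 20.4, 24.3 and 15.9 FPKM in OVA/LPS/Vehicle 12, 34, 56 and 78, and at 27.8, 13.5, 19 and 8.31 FPKM in OVA/LPS/GGsTop 1 to 4. The highest and the lowest library of all were thus both from OVA/LPS/GGsTop, and the groups overlapped in every comparison. The log2 fold change was 0.38 in OVA/LPS/Vehicle against PBS (95% interval -0.33 to 1.09, adjusted p = 0.360), -0.18 in OVA/LPS/GGsTop against OVA/LPS/Vehicle (-0.84 to 0.47, adjusted p = 0.705) and 0.20 in OVA/LPS/GGsTop against PBS (-0.51 to 0.91, adjusted p = 0.753). The summed level of 8 endothelial markers, a source tissue of the ligand, was 991 to 1842 FPKM in PBS, 726 to 892 in OVA/LPS/Vehicle and 524 to 1181 in OVA/LPS/GGsTop, with no marker at 0. Of the 8, 5 were called lower in OVA/LPS/Vehicle against PBS, beside 22.1% of all genes. After the GC correction 0 were called, beside 20.8% of all genes, while their median log2 fold change was -0.71 before and -0.61 after it. OVA/LPS/GGsTop 4, with the least Edn1, also had the lowest endothelial sum, whereas PBS 3, with the highest sum, was in the lower part of the Edn1 range. For 8 airway epithelial markers, the other source, the median log2 fold change in OVA/LPS/Vehicle against PBS was 0.67. Of these, 3 were called higher, beside 15.9% of all genes. Their sum was lowest in PBS 2 (28176 FPKM), with the least Edn1 of PBS, but was 42622 in OVA/LPS/GGsTop 4. The part of either tissue in the Edn1 values was not tested.

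Ednra was at 19.1, 18.5 and 16.0 FPKM in PBS 1 to 3. It was at 9.19, 14, 12.1 and 13.0 FPKM in OVA/LPS/Vehicle 12, 34, 56 and 78, and at 15.0, 15.2, 15.7 and 12.7 FPKM in OVA/LPS/GGsTop 1 to 4. Every OVA/LPS/Vehicle library lay below every PBS library, and 3 of the 4 OVA/LPS/GGsTop libraries lay between those groups. Ednra fell in OVA/LPS/Vehicle against PBS, with a log2 fold change of -0.54 (SE 0.14, 95% interval -0.84 to -0.24, adjusted p = 0.0128), and of -0.67 after the GC correction (adjusted p = 0.0127), under which 20.8% of all genes were called. With any one library omitted, its adjusted p stayed between 0.0115 and 0.0403. GGsTop against vehicle gave a log2 fold change of 0.27 (SE 0.13, 95% interval -0.01 to 0.55), with an unadjusted p of 0.0554 and an adjusted p of 0.172. Against PBS, OVA/LPS/GGsTop had a log2 fold change of -0.27 (SE 0.14, 95% interval -0.57 to 0.03, adjusted p = 0.291), and these groups did not overlap, as was the case for 14.8% of all genes.

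Markers of the cells that carry ETA had lower summed levels in OVA/LPS/Vehicle than in PBS. The summed level of 9 smooth muscle markers was 673, 874 and 715 FPKM in PBS 1 to 3, 538 to 592 FPKM in OVA/LPS/Vehicle and 702, 706, 548 and 1258 FPKM in OVA/LPS/GGsTop 1 to 4. The sum of every OVA/LPS/Vehicle library was thus below that of every PBS library, while OVA/LPS/GGsTop 4, with the highest sum, had the least Ednra of its group. None of the markers was at 0, but Tagln was under 1 FPKM in every library. Of the 8 markers in the fit, 2 were called lower in OVA/LPS/Vehicle against PBS, beside 22.1% of all genes. After the GC correction 1 was called in either direction, beside 20.8% of all genes. The median log2 fold change of the 8 was -0.39 before it and -0.15 after it. The sum of 6 pericyte markers was 81 to 96 FPKM in PBS, 64 to 75 in OVA/LPS/Vehicle and 68 to 77 in OVA/LPS/GGsTop, with none at 0. In OVA/LPS/Vehicle against PBS, 3 of the 6 were called lower and 1 higher, beside 22.1% and 15.9% of all genes. After the GC correction 4 were called in either direction. The median log2 fold change of the 6 was -0.47 before it and -0.21 after it. Per 1000 FPKM of smooth muscle markers, Ednra was at 28.4, 21.2 and 22.3 FPKM in PBS 1 to 3, at 17.1, 23.6, 22.4 and 23.6 FPKM in OVA/LPS/Vehicle and at 21.4, 21.6, 28.7 and 10.1 FPKM in OVA/LPS/GGsTop. On this scale all groups overlapped for Ednra, with medians of 22.3, 23 and 21.5 FPKM. The same scaling set PBS and OVA/LPS/Vehicle apart for Ednrb (24.4 to 44.3 and 48.6 to 70.7), Edn1 (13.1 to 23.2 and 24.5 to 44.9) and Chrm2 (1.84 to 16.1 and 18.2 to 22.2). Chrm1, Chrm3, Adrb1, Hrh1 and Htr2a overlapped there. The scaling also set OVA/LPS/GGsTop and OVA/LPS/Vehicle apart for Chrm2 (11.7 to 16.9 and 18.2 to 22.2). It set OVA/LPS/GGsTop and PBS apart for Hrh1 (0.182 to 0.361 and 0.365 to 0.405). How often all genes would not overlap on this scale was not computed. The part of these cells in the Ednra difference was not tested.

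Ednrb, the second endothelin receptor, was at 29.8, 32.1 and 17.5 FPKM in PBS 1 to 3. It was at 26.2, 39.2, 38.2 and 29.3 FPKM in OVA/LPS/Vehicle 12, 34, 56 and 78, and at 38.0, 23.5, 35.8 and 22 FPKM in OVA/LPS/GGsTop 1 to 4. PBS 3 was the lowest library of all, and the groups overlapped. Its log2 fold change in OVA/LPS/Vehicle against PBS was 0.34 (95% interval -0.21 to 0.89, adjusted p = 0.291), and it was 0.02 after the GC correction and 0.08 without PBS 3. For OVA/LPS/GGsTop it was -0.17 against OVA/LPS/Vehicle (-0.68 to 0.34, adjusted p = 0.648) and 0.17 against PBS (-0.38 to 0.72, adjusted p = 0.718).

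The ratio of Ednra to Ednrb within a library was 0.642, 0.576 and 0.914 in PBS 1 to 3. It was 0.351, 0.357, 0.317 and 0.445 in OVA/LPS/Vehicle 12, 34, 56 and 78, and 0.395, 0.648, 0.439 and 0.577 in OVA/LPS/GGsTop 1 to 4. The PBS and OVA/LPS/Vehicle ranges did not overlap, while those of OVA/LPS/GGsTop overlapped with both. PBS 3, the library with the steepest GC slope, gave the highest ratio, and the lowest ratio of the other PBS libraries was still above the highest of OVA/LPS/Vehicle. The ratio was not tested, and since Ednra was called in the same libraries, it is a description.

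**Figure D3:**
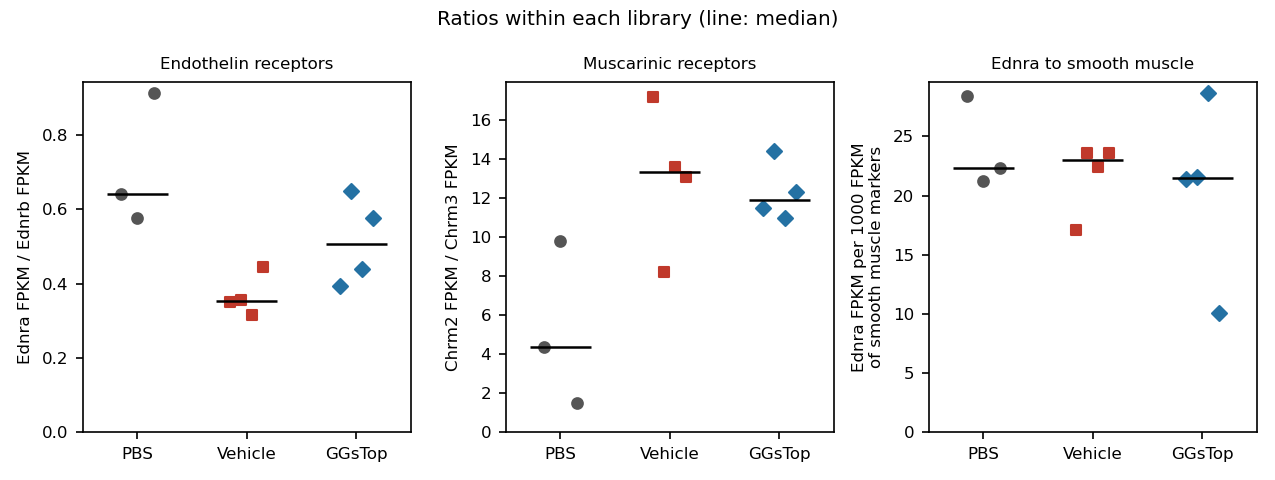
Ratios within each library (points) by group (x axis), with the group median as a line: Ednra to Ednrb, Chrm2 to Chrm3, and Ednra in FPKM per 1000 FPKM of 9 smooth muscle markers. Ednra to Ednrb is 0.576 to 0.914 in PBS and 0.317 to 0.445 in OVA/LPS/Vehicle, whereas Ednra relative to smooth muscle markers overlaps between all groups.

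By rule, the 3 genes whose log2 profile over the 11 libraries lay nearest to that of Ednra were Fam174b, Leng1 and Meis2, with root mean square differences of 0.102, 0.106 and 0.107 log2 units, against 0.264 for the spread of Ednra around its own mean. Meis2, which encodes a homeobox transcription factor, had a mean of 2.69 FPKM in PBS, 1.83 in OVA/LPS/Vehicle and 2.27 in OVA/LPS/GGsTop. The 6 other endothelin pathway genes on the list were 2 further ligands, 2 converting enzymes and 2 related peptidases, and 4 of them were in the fit. The one called in OVA/LPS/Vehicle against PBS, where 38.0% of all genes were called, was Ece1. This enzyme, which cuts big endothelin-1 to the active peptide, fell from 115 ± 35.8 FPKM (SD, n = 3) in PBS to 59.7 ± 3.37 (SD, n = 4) in OVA/LPS/Vehicle, a log2 fold change of -0.89 (adjusted p = 0.00587, and -0.65 with adjusted p = 0.0244 after the GC correction). It was at 76.6 ± 9.46 FPKM (SD, n = 4) in OVA/LPS/GGsTop, with an adjusted p of 0.179 against OVA/LPS/Vehicle and of 0.124 against PBS.

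Chrm2, the M2 receptor, which is the main muscarinic receptor of heart muscle and also inhibits acetylcholine release from airway nerves, lies at chr6:36388084-36528414 on the plus strand. It was at 2.52, 14.1 and 1.31 FPKM in PBS 1 to 3. It was at 11.7, 10.8, 12 and 11.3 FPKM in OVA/LPS/Vehicle 12, 34, 56 and 78, and at 9.04, 11.9, 6.44 and 20.4 FPKM in OVA/LPS/GGsTop 1 to 4. The OVA/LPS/Vehicle libraries were close together, and PBS was split, with PBS 2 above all of them and PBS 1 and PBS 3 far below. The log2 fold change in OVA/LPS/Vehicle against PBS was 1.32 (SE 0.53, 95% interval 0.17 to 2.48) and missed the threshold (adjusted p = 0.0658). It passed in voom (1.75, adjusted p = 0.0384; 39.0% of all genes called), with array weights (1.62, adjusted p = 0.000946; 56.5% called) and without PBS 2 (2.12, adjusted p = 0.0014), whereas it was 0.77 without PBS 3 (adjusted p = 0.302) and 0.88 after the GC correction (adjusted p = 0.189). Between OVA/LPS/GGsTop and PBS it was 1.27 (SE 0.53, 95% interval 0.12 to 2.42, adjusted p = 0.205), and it passed with array weights (1.43, adjusted p = 0.0122; 18.3% of all genes called) and without PBS 2 (2.07, adjusted p = 0.00655). Between OVA/LPS/GGsTop and OVA/LPS/Vehicle it was -0.05, with a wide interval of -1.12 to 1.02 (adjusted p = 0.956).

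Heart muscle markers followed the same libraries as Chrm2, and markers of some other tissues did so in part. The summed level of 8 cardiac markers, including Myh6 and Myl7, was 10, 1483 and 54 FPKM in PBS 1 to 3. It was 1031, 745, 1253 and 1123 FPKM in OVA/LPS/Vehicle 12, 34, 56 and 78, and 727, 1842, 434 and 2048 FPKM in OVA/LPS/GGsTop 1 to 4. PBS 1, PBS 3 and OVA/LPS/GGsTop 3 were thus the lowest in both Chrm2 and the cardiac sum, and OVA/LPS/GGsTop 4 was the highest in both. The low libraries were not particular to heart. In the same order, they also had the lowest sums of nerve (17, 16 and 21 FPKM), skeletal muscle (7, 11 and 17) and seromucous gland markers (29, 6 and 52). The highest sums of those lists lay elsewhere, in OVA/LPS/Vehicle 12 (113), 34 (138) and 56 (1762). No cardiac marker was at 0 in any library, and 4 of the 8 were called higher in OVA/LPS/Vehicle against PBS, beside 15.9% of all genes. After the GC correction 2 were called in either direction, beside 20.8% of all genes. The median log2 fold change of the 8 was 2.80 before it and 3.07 after it. Myh6, the α-myosin heavy chain of heart muscle, was at 1.45 FPKM in PBS 1, 321 FPKM in PBS 2 and 12.6 FPKM in PBS 3; it was chosen for mention after its values were seen. The part of heart muscle, nerve, skeletal muscle or gland in the Chrm2 values was not tested.

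**Figure D4:**
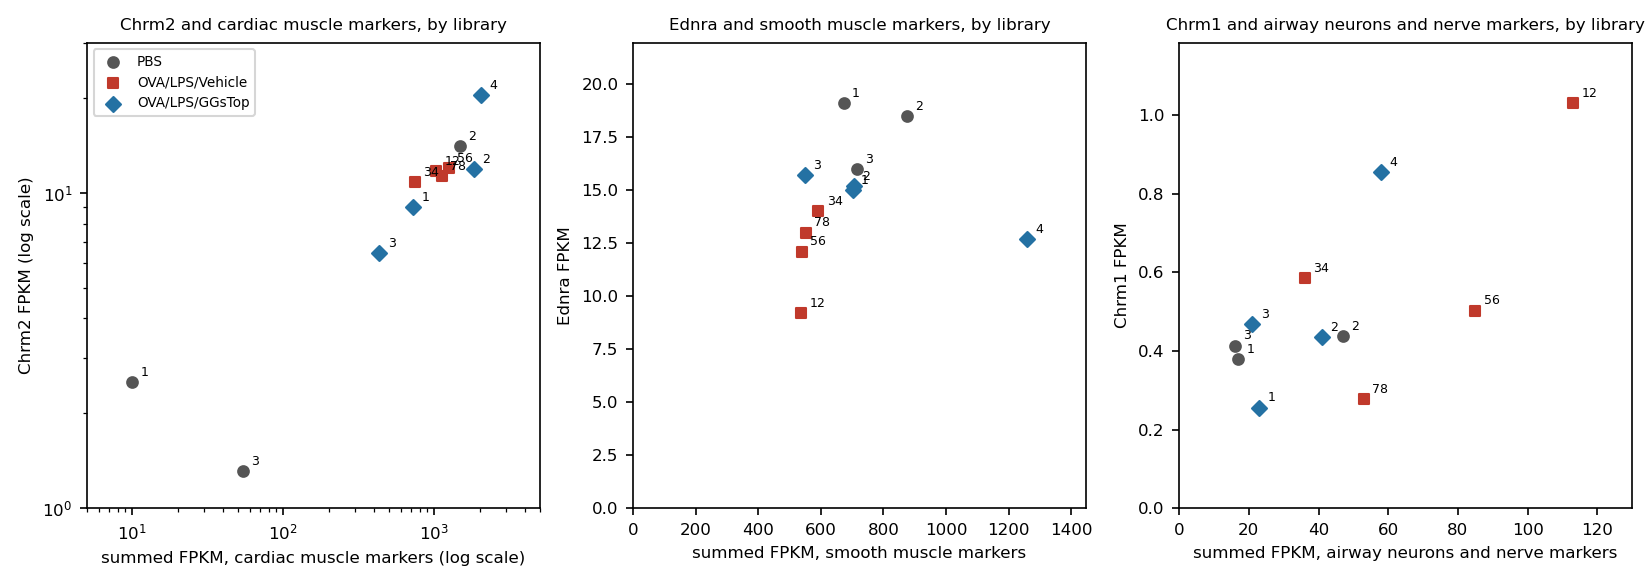
Level of Chrm2, Ednra and Chrm1 in FPKM (y axes) against the summed FPKM of markers of cardiac muscle, smooth muscle and airway neurons and nerve (x axes; the first panel has logarithmic axes), 1 point per library with its label. Chrm2 is lowest where the cardiac sum is 10 or 54 FPKM and highest where it is 2048 FPKM, the 4 OVA/LPS/Vehicle points lie low on both axes of the smooth muscle panel, and OVA/LPS/Vehicle 12 has the highest Chrm1 and nerve sum. OVA/LPS/Vehicle 78, at a nerve sum of 53 FPKM, has the least Chrm1 of its group.

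Chrm3, the M3 receptor through which acetylcholine contracts airway muscle, lies at chr13:9875486-10360847 on the minus strand and was far less abundant than Chrm2. It was at 0.573, 1.43 and 0.875 FPKM in PBS 1 to 3, at 0.681, 1.32, 0.883 and 0.861 FPKM in OVA/LPS/Vehicle 12, 34, 56 and 78, and at 0.786, 0.826, 0.588 and 1.66 FPKM in OVA/LPS/GGsTop 1 to 4. The groups overlapped almost entirely. Its log2 fold change was between -0.01 and 0.00 in each comparison on the log2(FPKM + 1) scale, which understates changes of low genes. The 95% interval was -0.45 to 0.43 in OVA/LPS/Vehicle against PBS (adjusted p = 0.985) and -0.40 to 0.41 in OVA/LPS/GGsTop against OVA/LPS/Vehicle (adjusted p = 0.992). The ratio of Chrm2 to Chrm3 was 4.40, 9.80 and 1.5 in PBS 1 to 3, 8.21 to 17.2 in OVA/LPS/Vehicle and 11 to 14.4 in OVA/LPS/GGsTop, and only the PBS and OVA/LPS/GGsTop ranges did not overlap.

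Chrm1, the M1 receptor of ganglia and glands, lies at chr19:8663789-8683587 on the plus strand. It was at 0.379, 0.438 and 0.414 FPKM in PBS 1 to 3, at 1.03, 0.585, 0.503 and 0.277 FPKM in OVA/LPS/Vehicle 12, 34, 56 and 78, and at 0.256, 0.435, 0.469 and 0.854 FPKM in OVA/LPS/GGsTop 1 to 4. PBS libraries were close together and lay inside the range of both OVA/LPS groups. The log2 fold change was 0.16 in OVA/LPS/Vehicle against PBS (95% interval -0.21 to 0.54, adjusted p = 0.464), -0.08 in OVA/LPS/GGsTop against OVA/LPS/Vehicle (-0.43 to 0.26, adjusted p = 0.751) and 0.08 in OVA/LPS/GGsTop against PBS (-0.30 to 0.45, adjusted p = 0.818). OVA/LPS/Vehicle 12, the highest library, also had the highest sum of 9 nerve markers, 113 FPKM, against 16 to 47 FPKM in PBS, 36 to 85 in the other OVA/LPS/Vehicle libraries and 21 to 58 in OVA/LPS/GGsTop. OVA/LPS/Vehicle 78, with the least Chrm1 of its group, had a nerve sum of 53 FPKM, above every PBS library. OVA/LPS/Vehicle 56 had 85 FPKM of nerve markers and 0.503 FPKM of Chrm1. The part of nerve in the Chrm1 values was not tested. Chat, which encodes the enzyme that makes acetylcholine, was under 1 FPKM in every library and at 0 in some PBS and OVA/LPS/GGsTop libraries. Snap25 was at 0 in at least 1 PBS library. Of the 10 other cholinergic genes listed, 6 were in the fit, and limma called 0 in each comparison. In OVA/LPS/Vehicle against PBS, 1 of them had an unadjusted p under 0.05 (49.6% of all genes) and voom called 1; in the other 2 comparisons both counts were 0.

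Adrb1, the β1-adrenergic receptor, through which catecholamines raise cAMP, lies at chr19:56722199-56733113 on the plus strand. It was at 18.4, 12.6 and 22.5 FPKM in PBS 1 to 3, at 11.7, 15.2, 16.3 and 11.9 FPKM in OVA/LPS/Vehicle 12, 34, 56 and 78, and at 12.8, 11.9, 17 and 9.25 FPKM in OVA/LPS/GGsTop 1 to 4. PBS 3 was the highest library and OVA/LPS/GGsTop 4 the lowest, and PBS 2 lay within both OVA/LPS groups. Its log2 fold change in OVA/LPS/Vehicle against PBS was -0.33 (95% interval -0.80 to 0.15, adjusted p = 0.243), with an adjusted p of 0.0462 under array weights (56.5% of all genes called), and it was 0.03 after the GC correction. OVA/LPS/GGsTop gave -0.12 against OVA/LPS/Vehicle (-0.56 to 0.32, adjusted p = 0.718) and -0.45 against PBS (-0.92 to 0.03, adjusted p = 0.269). Alveolar markers had their highest sums, 16374 and 12021 FPKM, in PBS 3 and OVA/LPS/GGsTop 3 and their lowest, 4672 FPKM, in OVA/LPS/GGsTop 4. Of the 7, 3 were called lower in OVA/LPS/Vehicle against PBS, beside 22.1% of all genes. After the GC correction 3 were called in either direction, beside 20.8% of all genes. Endothelial markers were also highest in PBS 3 (1842 FPKM), then in PBS 1 (1428) and OVA/LPS/GGsTop 3 (1181), and lowest in OVA/LPS/GGsTop 4 (524). OVA/LPS/Vehicle 56, with 16.3 FPKM of Adrb1, had a lower endothelial sum (892) than OVA/LPS/GGsTop 1 (1126). The part of either tissue in the Adrb1 values was not tested.

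Of 12 further adrenergic genes listed, 9 were in the fit, and 3 were called lower and 1 higher in OVA/LPS/Vehicle against PBS, where 22.1% of all genes were called lower and 15.9% higher. Adra1a, the α1A receptor, which is coupled to Gq, fell from 3.15 ± 0.455 FPKM (SD, n = 3) in PBS to 1.41 ± 0.243 (SD, n = 4) in OVA/LPS/Vehicle (log2 fold change -0.78, adjusted p = 0.00377). It was at 0.921 ± 0.22 FPKM (SD, n = 4) in OVA/LPS/GGsTop, also below PBS (log2 fold change -1.11, adjusted p = 0.00303), and the step from OVA/LPS/Vehicle did not pass (-0.33, adjusted p = 0.101). Adra2a, the α2A receptor, which inhibits transmitter release from nerves, rose from 0.583 ± 0.722 FPKM (SD, n = 3) to 3.01 ± 0.726 (SD, n = 4) in OVA/LPS/Vehicle (log2 fold change 1.41, adjusted p = 0.0146). Both also passed after the GC correction, but Adra2a did not without PBS 3 (adjusted p = 0.0655) or without PBS 1. In OVA/LPS/GGsTop against OVA/LPS/Vehicle limma and voom called 0 of the 9, beside 8.71% and 5.82% of all genes. Of the 9, 2 had an unadjusted limma p under 0.05 (30.8% of all genes).

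Hrh1, the H1 receptor, lies at chr6:114397936-114483296 on the plus strand and was the least abundant of the 9 genes, with 6 to 24 fragments per library. It was at 0.254, 0.319 and 0.289 FPKM in PBS 1 to 3, at 0.0870, 0.270, 0.0846 and 0.161 FPKM in OVA/LPS/Vehicle 12, 34, 56 and 78, and at 0.254, 0.201, 0.0997 and 0.288 FPKM in OVA/LPS/GGsTop 1 to 4. In OVA/LPS/Vehicle, library 34 alone reached the PBS range. The difference in mean log2(FPKM + 1) was -0.17 in OVA/LPS/Vehicle against PBS (exact two-sided permutation test, p = 0.114, where 0.0571 is the smallest this design allows), 0.07 in OVA/LPS/GGsTop against OVA/LPS/Vehicle (p = 0.314, smallest 0.0286) and -0.09 in OVA/LPS/GGsTop against PBS (p = 0.171, smallest 0.0571). In a limma fit with no minimum level the adjusted p was 0.0902, 0.486 and 0.517. Of the 5 other histamine genes listed, 2 were in the fit. Hnmt, which inactivates histamine, had 4.75 ± 1.35 FPKM (SD, n = 3) in PBS, 9.15 ± 1.04 (SD, n = 4) in OVA/LPS/Vehicle and 6.97 ± 0.835 (SD, n = 4) in OVA/LPS/GGsTop. It rose in OVA/LPS/Vehicle against PBS (log2 fold change 0.84, adjusted p = 0.00511), but had a log2 fold change of 0.24 and an adjusted p of 0.129 after the GC correction.

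Htr2a, the 5-HT2A receptor, which contracts smooth muscle, lies at chr14:74640840-74709494 on the plus strand. It was at 0.604, 0.610 and 0.191 FPKM in PBS 1 to 3, at 0.759, 0.711, 0.414 and 0.576 FPKM in OVA/LPS/Vehicle 12, 34, 56 and 78, and at 0.652, 0.479, 0.317 and 0.663 FPKM in OVA/LPS/GGsTop 1 to 4. PBS 3 was the lowest library, and the groups overlapped. The log2 fold change was 0.15 in OVA/LPS/Vehicle against PBS (95% interval -0.18 to 0.47, adjusted p = 0.446) and -0.31 after the GC correction (adjusted p = 0.0906). With GGsTop it was -0.08 against OVA/LPS/Vehicle (-0.38 to 0.22, adjusted p = 0.717) and 0.06 against PBS (-0.26 to 0.39, adjusted p = 0.830). Of 17 other serotonin genes listed, 6 were in the fit. In OVA/LPS/Vehicle against PBS, 1 was called lower and 1 higher, beside 22.1% and 15.9% of all genes. After the GC correction 1 was called in either direction, beside 20.8% of all genes. Htr1b, a Gi-coupled receptor, rose from 0.658 ± 0.259 FPKM (SD, n = 3) to 1.82 ± 0.399 (SD, n = 4), a log2 fold change of 0.77 (adjusted p = 0.0101). Slc6a4, the serotonin transporter, fell from 2.94 ± 0.429 FPKM (SD, n = 3) to 1.56 ± 0.425 (SD, n = 4), a log2 fold change of -0.64 (adjusted p = 0.0179), and had an adjusted p of 0.0563 after the GC correction and of 0.0724 without PBS 3.

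Downstream of the contractile receptors, 22 listed genes of Gq signalling and calcium sensitization were all in the fit, and 7 were called lower and 5 higher in OVA/LPS/Vehicle against PBS, beside 22.1% and 15.9% of all genes. The number called in either direction was 3 after the GC correction, under which 20.8% of all genes were called. Rock1, a kinase that promotes contraction, rose from 5.34 ± 2.1 FPKM (SD, n = 3) to 11.4 ± 0.694 (SD, n = 4). The log2 fold change was 1.03 (adjusted p = 0.0049) and 0.52 after the GC correction (adjusted p = 0.0112). Gna11, a Gq-class α-subunit, fell by 0.61 on the log2 scale in OVA/LPS/Vehicle against PBS (adjusted p = 0.00879), but had a log2 fold change of -0.28 and did not pass after the GC correction (adjusted p = 0.0673). Gna11 and Itpr3, an IP3-gated calcium channel, were the 2 genes of this list called in OVA/LPS/GGsTop against OVA/LPS/Vehicle, beside 8.71% of all genes. Both were higher, with log2 fold changes of 0.46 (adjusted p = 0.0492) and 0.49 (adjusted p = 0.0396). After the GC correction, under which 0.429% of all genes were called in that comparison, these were 0.20 and 0.22 and did not pass (adjusted p = 0.259 and 0.216). Omitting 1 library also ended the call of Gna11 for 9 of the 11 libraries and that of Itpr3 for 7, each of the OVA/LPS/GGsTop libraries among them.

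The list of Gs, cAMP and desensitisation genes holds both genes that raise cAMP and genes that break it down or desensitise receptors. Of its 27 names, 25 were in the fit, and 12 were called lower and 2 higher in OVA/LPS/Vehicle against PBS, beside 22.1% and 15.9% of all genes. After the GC correction 5 were called, beside 20.8% of all genes. Adcy2, an adenylyl cyclase that makes cAMP, had a log2 fold change of -0.83 (adjusted p = 0.00687), with 7.38 ± 2.09 FPKM (SD, n = 3) in PBS and 3.66 ± 0.679 (SD, n = 4) in OVA/LPS/Vehicle. Adcy7, another adenylyl cyclase, fell from 22.4 ± 1.41 FPKM (SD, n = 3) to 13.9 ± 2.29 (SD, n = 4) (log2 fold change -0.66, adjusted p = 0.00449) and was at 20.7 ± 0.813 FPKM (SD, n = 4) in OVA/LPS/GGsTop, above OVA/LPS/Vehicle (0.55, adjusted p = 0.0224). Pde4a, a phosphodiesterase that breaks down cAMP, was also higher in OVA/LPS/GGsTop than in OVA/LPS/Vehicle (log2 fold change 0.62, adjusted p = 0.0163). After the GC correction the log2 fold change in that comparison was 0.44 for Adcy7 and 0.36 for Pde4a, and neither passed (adjusted p = 0.0613 and 0.083). Neither passed with OVA/LPS/GGsTop 1 omitted (0.0779 and 0.0714) or with OVA/LPS/Vehicle 34 or 56 omitted. Before the correction 3 genes of the list had been called higher and 0 lower in that comparison, beside 8.71% of all genes in either direction.

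Among 18 further receptors of airway tone in the fit, 6 were called lower and 2 higher in OVA/LPS/Vehicle against PBS, again beside 22.1% and 15.9% of all genes. Vipr2, a Gs-coupled receptor for the relaxing peptide VIP, fell from 10.2 ± 2.48 FPKM (SD, n = 3) in PBS to 3.42 ± 0.409 (SD, n = 4) in OVA/LPS/Vehicle (log2 fold change -1.33, adjusted p = 0.00337) and was at 4.55 ± 0.96 (SD, n = 4) in OVA/LPS/GGsTop, also below PBS (-1.01, adjusted p = 0.016, and 0.0859 without PBS 1, with PBS 3 and OVA/LPS/GGsTop 1 also ending the call). F2r, the thrombin receptor PAR1, fell from 66.2 ± 10.2 FPKM (SD, n = 3) to 43.7 ± 3.81 (SD, n = 4) in OVA/LPS/Vehicle (log2 fold change -0.58, adjusted p = 0.00659). Both passed after the GC correction. P2ry2, a Gq-coupled receptor for extracellular nucleotides, was called higher in OVA/LPS/GGsTop than in OVA/LPS/Vehicle (log2 fold change 0.61, adjusted p = 0.043) but not after that correction (0.36, adjusted p = 0.198), nor with any one of 9 of the 11 libraries omitted.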

How the data were processed

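RNA-seq was performed on 11 libraries in 3 groups, labelled PBS (3), OL (4, here OVA/LPS/Vehicle) and OLG (4, here OVA/LPS/GGsTop). For each library the authors deposited FPKM, in 1 table of 21899 genes, with no further scaling. The submitters' processing notes name cutadapt 1.15, HISAT2 2.0.5, HTSeq 0.9.1 and the build mm39, with no role or order. Multiplied by merged exon length (GENCODE M21, GRCm38), FPKM gave whole fragments (within 0.05) in every library for 21427 genes (97.8%), including the 9 genes described, and coordinates and symbols (21846 genes matched) are from that annotation. Where 27 symbols were shared by several identifiers, that with the highest mean was kept.

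Genes averaging 0.5 FPKM or more (14002) were fitted in limma 3.58.1 (R 4.3.3) as log2(FPKM + 1), 3 groups in 1 fit with a mean-variance trend. Two-sided p-values were adjusted by Benjamini-Hochberg over all genes tested, and genes were called at an adjusted p under 0.05. Hrh1 was compared by an exact permutation test (scipy 1.17.1). The GC correction subtracted, in each library, a natural spline (5 degrees of freedom) of deviations from gene means on GC content. The alternatives were another pseudocount, filter or scaling, array weights, limma voom on the fragments with trimmed-mean (TMM) scaling, no trend, 2 groups only, each library left out, and a replicate block. The block together with the GC correction, and a fit to the same libraries with no block, were added after seeing the data. The limma fit was tested on simulated data.

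The 9 genes, the gene lists and the rules were chosen with earlier results of these data known. The genes named besides the 9 are up to 3 called genes with the smallest p per pathway list and the 3 profiles nearest to each called gene; Myh6 and the other single markers named were chosen after their values were seen. The results of some genes of the lists are not reported here. Same-numbered PBS and OVA/LPS/GGsTop libraries deviated together (correlations 0.367, 0.427 and 0.428). The numbers come from the labels, which do not say that these libraries are pairs. By correlation, PBS 1 went best with OVA/LPS/GGsTop 3 (0.457) and PBS 2 with OVA/LPS/GGsTop 4 (0.637). Intervals of fold changes are 95% intervals from limma.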

Additional observations from a re-analysis of the deposited data

How the results depend on the processing

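Depth limited Hrh1, Htr2a, Chrm1 and Chrm3, which rested on between 6 and 154 fragments per library. Chrm2 had a wide spread between PBS libraries, and Ednrb, Adrb1 and Htr2a had their extreme value in PBS 3, the library with the steepest GC slope. The call of Ednra in OVA/LPS/Vehicle against PBS held under every alternative run. The number of the 8 genes called in that comparison was 1, beside 38.0% of all genes. It was 2 in voom, beside 39.0% of all genes, and 3 with array weights (Ednra, Chrm2, Adrb1), beside 56.5%. With 1 library omitted it was between 1 and 2, 2 without PBS 2. In OVA/LPS/GGsTop against PBS the number was 0, beside 2.88% of all genes, and 1 (Chrm2) under array weights, beside 18.3%. With 1 library omitted it was between 0 and 1, 1 without PBS 2. In OVA/LPS/GGsTop against OVA/LPS/Vehicle it was 0 under all alternatives. No cause of these changes was tested.

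With 1 library omitted, the calls over all genes ranged from 3064 (without PBS 3) to 6440 (without PBS 2) in OVA/LPS/Vehicle against PBS (5326 in full), from 24 (without OVA/LPS/GGsTop 1) to 3590 (without PBS 3) in OVA/LPS/GGsTop against OVA/LPS/Vehicle (1220 in full) and from 29 (without PBS 1) to 1597 (without PBS 2) in OVA/LPS/GGsTop against PBS (403 in full). The GC correction gave 2905 calls in the first comparison and 60 in the second. The second had 695 calls with the same median, 2180 with the same FPKM total, 5214 with array weights and 3525 with only the 2 groups, and the third had 208 without a filter, 2561 with array weights and 39 with only the 2 groups. The same FPKM total moved the median log2 fold change of all genes from -0.02 to -0.15 in OVA/LPS/Vehicle against PBS.

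The replicate block could be fitted to the 6 same-numbered libraries of PBS and OVA/LPS/GGsTop, without OVA/LPS/GGsTop 4. It gave 62 calls, against 14 in the same 6 libraries with no block, a fit added after seeing the data, and called 0 of the 8 genes. Chrm1 was -0.027 in both fits and with OVA/LPS/GGsTop 4 alone omitted. Together with the GC correction the block turned Htr2a to -0.15.

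Of 255 other log2 fold changes of the 8 genes, 229 kept direction and side of the threshold, 4 passed it newly and 22 changed sign, all 22 for values that were not called. Against PBS, Chrm3 in OVA/LPS/Vehicle became 0.012 with a pseudocount of 0.1, 0.011 after the GC correction, 0.073 in voom and 0.26 with array weights, and Adrb1 became 0.034 and Htr2a -0.31 after the GC correction. Between OVA/LPS/GGsTop and OVA/LPS/Vehicle, the GC correction turned Chrm2 to 0.23, Ednrb to 0.018, Htr2a to 0.21 and Chrm3 to -0.047. Chrm2 was 0.036 with the same FPKM total, Chrm3 -0.017 with a pseudocount of 0.1, -0.022 with the same median, -0.10 in voom and -0.12 with array weights, and Edn1 0.066 with array weights. Against PBS, Chrm3 in OVA/LPS/GGsTop became 0.14 and Htr2a -0.058 with array weights, and Htr2a -0.11 after the GC correction.

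Omitting 1 library also changed the sign of some log2 fold changes that were not called. For OVA/LPS/Vehicle against PBS this was so for Chrm3 (-0.15 without PBS 1 to 0.16 without PBS 2). Between the OVA/LPS groups it was so for Chrm1 (-0.19 without OVA/LPS/GGsTop 4 to 0.039 without OVA/LPS/Vehicle 12), Chrm2 (-0.33 without OVA/LPS/GGsTop 4 to 0.18 without OVA/LPS/GGsTop 3), Chrm3 (-0.15 without OVA/LPS/GGsTop 4 to 0.097 without OVA/LPS/GGsTop 3), Adrb1 (-0.26 without OVA/LPS/GGsTop 3 to 0.013 without OVA/LPS/GGsTop 4) and Edn1 (-0.45 without OVA/LPS/GGsTop 1 to 0.097 without OVA/LPS/GGsTop 4). For OVA/LPS/GGsTop against PBS it was so for Chrm1 (-0.027 without OVA/LPS/GGsTop 4 to 0.16 without OVA/LPS/GGsTop 1), Chrm3 (-0.16 without OVA/LPS/GGsTop 4 to 0.17 without PBS 2), Edn1 (-0.067 without OVA/LPS/GGsTop 1 to 0.48 without OVA/LPS/GGsTop 4), Ednrb (-0.091 without PBS 3 to 0.33 without PBS 2) and Htr2a (-0.079 without PBS 3 to 0.14 without PBS 2).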
